A study of Mus musculus with 2 samples.

Results

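The genes described here are 10 kinases of the JNK and p38 mitogen-activated protein kinase pathways, chosen by name from the 33797 gene names of the mouse annotation: the MAP4 kinases Map4k4, Mink1 and Tnik, the MAP3 kinases Map3k7 and Map3k4, the MAP2 kinase Map2k7, and the MAP kinases Mapk8, Mapk9, Mapk10 and Mapk14. Splicing was measured in poly(A) RNA of N2A cells, a mouse neuroblastoma line, in 1 library from cells transfected with a control shRNA (shControl) and 1 library from cells transfected with an shRNA against Ptbp1 (shptbp1), each collected after 3 days in culture. Both libraries came from the same kind of cells under the same transfection, and no other allele or agent was named. PTBP1 is the polypyrimidine tract-binding protein, an RNA-binding splicing regulator that is replaced by its paralog PTBP2 in neurons. The splicing events of the 10 genes were all exon trios (an exon with its neighbor on each side) of any class that lie in the mm9 span of the gene on its strand, 215 of 192169 events in the whole table, of which 209 of 121475 had at least 20 reads in each library. With 1 library per condition there was no replicate check, and no test of the conditions was possible. The intervals given below are 95% intervals for counting error of these libraries alone, and reads without molecular identifiers are not independent molecules.

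In these pathways a signal passes down a series of kinases. MAP4 kinases such as Map4k4 act on MAP3 kinases, which phosphorylate MAP2 kinases, which in turn phosphorylate the JNKs (Mapk8, Mapk9 and Mapk10) or the p38 kinases (Mapk14 among them). In neurons the pathways are known for roles in axon growth, axon degeneration and stress responses, and Mapk10 is the JNK gene whose expression is largely neural.

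The table held 75860076 junction reads for the control library and 59483573 for the Ptbp1 knockdown library, and the events of the 10 genes had a median of 1044 and 958 reads, against 782 and 682 over all events. Ptbp1 checked the labels: its constitutive junctions held 37942 reads in control cells and 10036 in knockdown cells, which is 0.338 (0.331 to 0.346) of the control level after scaling to the library's total. Ptbp2 junctions held 4782 and 9056 reads, a level 2.42-fold (2.34 to 2.51) that of the control library. Of 10 markers of sympathetic neuroblastoma cells and neurons, 8 were at 1 ppm (part in 1000000 of the library's total depth) or more in both libraries, among them Hand2 and Tubb3, while Nefl and Nefm lay below. By RefSeq isoforms, the summed level of 3 fibroblast markers was 0.811 ppm in control cells and 5.23 in knockdown cells. Most of that sum was Pdgfra, at 0.712 and 4.69 ppm, which was at 3.08 and 6.15 over all isoforms of its locus. The sum of 3 glial markers was 5.78 and 3.63, and the blood marker Ptprc was at 0 and 0.0126. The part of these levels in the results was not tested.

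Most exons of the 10 kinases were spliced alike in both libraries. The percent spliced in (PSI) is the share of a trio's transcripts that hold its middle exon, here SpliceTrap's corrected inclusion ratio times 100. Of 185 events of the constitutive class, 178 had a PSI over 95 in both libraries. Of all 209 events, 11 were higher in knockdown cells by 5 points or more, which is 5.26% against 2.72% of all events in the table, and 6 were lower, 2.87% against 2.68%. Where the interval of the difference in junction PSI also had to lie on the same side of 0, 10 events (4.78%) were higher against 0.727% of all events, and 1 event (0.478%) was lower against 0.722%. Junction PSI was the mean count of both inclusion junctions over the sum of this mean and the count of the skipping junction.

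Of these 11 called events, 10 were cassette exons, and the other was a retained intron of Map2k7. Of 13 cassette events in the 10 genes, 9 were higher with the interval above 0, 69.2% against 8.5% of all cassette events, and 1 was lower, 7.69% against 6.43%. The 9 exons lay in 6 genes, Tnik, Mink1, Map4k4, Map3k4, Map3k7 and Map2k7, which include every MAP4, MAP3 and MAP2 kinase of the list. The median difference over the 13 was 13.3 points, against 0 over all cassette events. The 10 genes were chosen with earlier results of these data known, so the values over all events are given for scale alone. Of the 13 exons, 12 have a length divisible by 3. They include all 11 that are coding, so that including these 11 keeps the reading frame. The same shares were not computed over all cassette events. The 2 that are not fully coding are a 45-base exon of Mapk14, not coding, at PSI 0.9 and 1.2, and a 104-base exon of Tnik, partly coding, at PSI 0.1 and 0.2, which had 0 inclusion reads beside 50 and 51 skipping reads, and a count of 0 in control cells allows a junction PSI of up to 7.13 (Wilson interval).

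**Figure D1:**
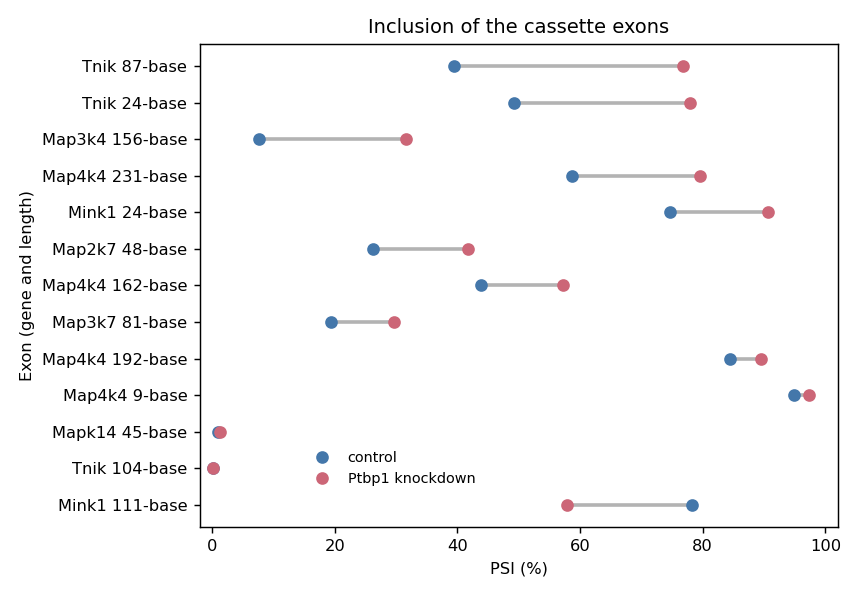
PSI (x axis, percent) of the 13 cassette exons with 20 reads in each library (y axis, gene and exon length), in control cells (blue) and Ptbp1 knockdown cells (red), 1 library each. The knockdown point lies to the right for every exon that changed by 5 points except the Mink1 111-base exon, which went from 78.3 to 57.9.

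Tnik, a MAP4 kinase that also acts with TCF4 in Wnt signaling and at synapses, held the largest differences of the 10 genes. Its 87-base exon had a PSI of 39.4 in control cells and 76.8 in knockdown cells. Control cells held 45 reads on the upstream and 48 on the downstream inclusion junction and 79 on the skipping junction, and knockdown cells held 105, 82 and 29. Skipping reads were thus the largest class in control cells and the smallest in knockdown cells, and junction PSI differed by 39.3 points (27.3 to 49.6). The exon is coding and is present in 5 of 16 annotated Tnik transcripts. It is shown from 100 bases upstream to 10 bases downstream (mm9, plus strand, chr3:28493729-28493925), with the exon in capitals, because the intron just before it holds a run of 24 pyrimidines within the 250 bases searched.
Tnik 87-base exon: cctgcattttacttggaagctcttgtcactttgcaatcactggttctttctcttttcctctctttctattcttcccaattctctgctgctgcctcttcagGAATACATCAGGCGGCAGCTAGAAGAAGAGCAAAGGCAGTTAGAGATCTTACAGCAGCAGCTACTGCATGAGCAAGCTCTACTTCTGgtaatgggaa

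The other changed exon of Tnik is a microexon of 24 bases, and Mink1, the paralog of Tnik, has a microexon of the same length. The Tnik microexon had a PSI of 49.2 in control cells and 78.0 in knockdown cells. Its larger inclusion junction held 84 and 106 reads, its smaller one 2 and 10, and the skipping junction 73 and 24. The Mink1 microexon had a PSI of 74.6 and 90.7, with 256 and 339 reads on the larger inclusion junction, 65 and 67 on the smaller one, and 91 and 34 on the skipping junction. Reads were thus unequal between the inclusion junctions of these short exons in both libraries, so the difference was also taken with the larger junction alone, and was then 28.0 points for Tnik (17.3 to 37.7) and 17.1 points for Mink1 (11.6 to 22.6). The exons agree at 18 of 24 bases (75%). They are printed here side by side with the exon in capitals, the Tnik microexon from mm9 chr3:28524021-28524154 and the Mink1 microexon from chr11:70422810-70422943, both on the plus strand.
Tnik 24-base exon: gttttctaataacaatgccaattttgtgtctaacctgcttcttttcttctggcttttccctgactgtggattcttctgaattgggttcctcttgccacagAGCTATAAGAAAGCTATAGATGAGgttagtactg
Mink1 24-base exon: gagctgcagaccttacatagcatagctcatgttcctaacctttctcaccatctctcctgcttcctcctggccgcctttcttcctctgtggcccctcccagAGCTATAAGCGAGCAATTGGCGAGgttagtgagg

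Mink1, a MAP4 kinase of the Misshapen group like Tnik and Map4k4, also held the only exon that was lower with the interval below 0. Its 111-base coding exon had a PSI of 78.3 in control cells and 57.9 in knockdown cells. The inclusion junctions held 88 and 108 reads in control cells and 79 and 135 in knockdown cells, and skipping reads went from 31 to 87. The difference in junction PSI was -20.8 points (-30.4 to -10.3). The exon starts 819 bases before the microexon on chromosome 11, and the microexon and this exon went in opposite directions within the same gene. The 111-base exon is shown for contrast with those that were higher (mm9, plus strand, chr11:70421991-70422211, exon in capitals).
Mink1 111-base exon: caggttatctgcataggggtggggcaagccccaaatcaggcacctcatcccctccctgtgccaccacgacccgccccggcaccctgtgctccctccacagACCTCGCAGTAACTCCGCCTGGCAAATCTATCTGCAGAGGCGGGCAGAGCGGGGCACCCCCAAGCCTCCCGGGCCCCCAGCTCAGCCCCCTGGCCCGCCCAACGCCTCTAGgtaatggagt

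Map4k4, the third kinase of this group and a regulator of cell adhesion and migration, was the most highly expressed of the 10 genes and had 4 cassette exons, all coding and all with a length divisible by 3. Its 162-base exon had a PSI of 43.9 in control cells and 57.2 in knockdown cells, and its 231-base exon 58.7 and 79.6. The trio of the 162-base exon leaves out reads that skip both exons. That of the 231-base exon leaves out the junction from the 162-base exon into it. Neither PSI is thus a share of all Map4k4 transcripts, and by the mean over trios the differences were 19.55 and 15.8 points. The difference in junction PSI was 12.5 points (6.29 to 18.5) for the 162-base exon and 25.0 points (20.4 to 29.3) for the 231-base exon. The 192-base exon was at 84.4 and 89.5, a junction difference of 5.58 points (3.05 to 8.06). The 9-base exon, the shortest cassette exon of the 10 genes, was near full inclusion at 94.9 and 97.4, under the 5-point threshold, with a difference of 2.56 points (0.975 to 4.11) by the larger junction.

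The 162-base and 231-base exons of Map4k4 are neighbors, so the reads leaving the donor before them could be followed to each acceptor. In control cells 272 of 1132 reads (24.0%) joined the 162-base exon, 269 (23.8%) joined the 231-base exon directly and 591 (52.2%) joined the exon after both. In knockdown cells 330 of 759 reads (43.5%) joined the 162-base exon, 214 (28.2%) joined the 231-base exon and 215 (28.3%) skipped both. The share that joined the 162-base exon was higher by 19.5 points (15.1 to 23.7), the share to the 231-base exon by 4.43 points (0.419 to 8.51), and skipping of both was lower by 23.9 points (19.5 to 28.1). Skipping of both exons was the most frequent of these forms in control cells, and joining the 162-base exon was in knockdown cells.

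**Figure D2:**
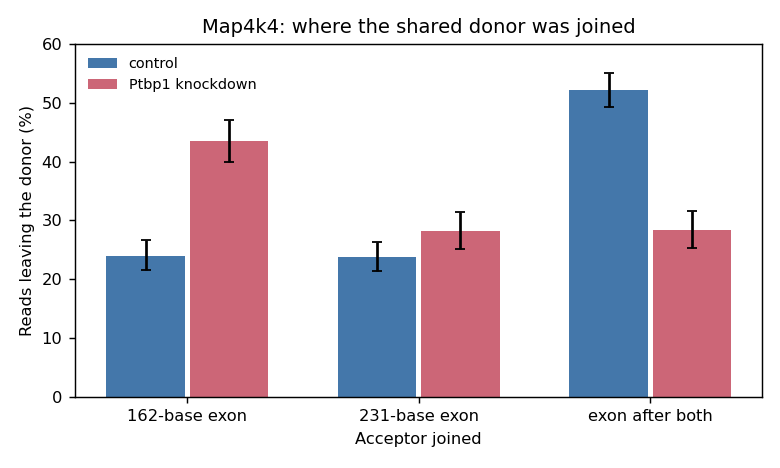
Reads leaving the Map4k4 donor upstream of the 162-base and 231-base exons (y axis, percent of the 1132 control and 759 knockdown reads) by the acceptor joined (x axis), with 95% Wilson intervals of 1 library each. The control library is highest for the exon after both (52.2%) and the knockdown library for the 162-base exon (43.5%).

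Of the MAP3 kinases, Map3k4 (MEKK4), which acts on MAP2 kinases of both the JNK and p38 pathways, had a 156-base coding exon with a PSI of 7.7 in control cells and 31.6 in knockdown cells. Its inclusion junctions held 17 and 28 reads in control cells and 77 and 87 in knockdown cells, with 279 and 171 skipping reads. The exon was thus skipped in most transcripts of both libraries, and junction PSI was higher by 24.9 points in knockdown cells (18.4 to 31.4). The annotation lists it in 1 of 2 transcripts. It is shown with the exon in capitals as the called exon with the largest ratio of knockdown to control PSI (mm9, minus strand, chr17:12435506-12435771).
Map3k4 156-base exon: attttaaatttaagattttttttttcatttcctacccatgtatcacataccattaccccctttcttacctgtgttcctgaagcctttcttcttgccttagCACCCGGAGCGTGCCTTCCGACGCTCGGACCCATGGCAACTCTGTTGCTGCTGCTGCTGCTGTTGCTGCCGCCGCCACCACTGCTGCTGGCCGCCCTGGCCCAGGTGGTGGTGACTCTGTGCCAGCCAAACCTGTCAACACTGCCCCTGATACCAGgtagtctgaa

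Map3k7 (TAK1), which is activated downstream of cytokine and TGF-beta receptors, had an 81-base coding exon at PSI 19.3 in control cells and 29.7 in knockdown cells. The inclusion junctions held 66 and 54 reads in control cells and 84 and 81 in knockdown cells, and the skipping junction 267 and 209. The difference in junction PSI was 9.95 points (3.29 to 16.6), and the exon was skipped in most transcripts of both libraries. A second cassette exon of Map3k7, of 78 bases, had 19 and 20 reads, just under the minimum, and was at PSI 3.9 and 7.3. The other 5 events that missed the minimum were constitutive-class exons at the 3′ end of the Map2k7 span, with 6 to 19 reads in control cells and 9 to 31 in knockdown cells, and the shallowest event that reached it was a 7-base alternative donor of Tnik with 30 and 21 reads.

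Map2k7 (MKK7), the MAP2 kinase that phosphorylates the JNKs and not p38, had a 48-base coding exon at PSI 26.3 in control cells and 41.7 in knockdown cells. The upstream junction held 50 and 124 reads, the downstream junction 3 and 35, and the skipping junction 112 and 175. Reads on all 3 junctions were higher in knockdown cells, with the inclusion junctions up by more. Junction PSI was higher by 12.1 points (3.00 to 20.3). The inclusion junctions were unequal in both libraries, and the difference by each of them alone was not computed. The exon occurs in 4 of 11 annotated transcripts. It is shown with the exon in capitals because the upstream intron holds the longest pyrimidine run of the exons named here, 30 bases (mm9, plus strand, chr8:4240588-4240745).
Map2k7 48-base exon: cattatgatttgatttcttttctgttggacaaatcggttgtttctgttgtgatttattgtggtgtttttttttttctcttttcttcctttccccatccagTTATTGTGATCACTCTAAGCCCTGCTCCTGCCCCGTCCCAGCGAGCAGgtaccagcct

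Map2k7 also had the only retained intron among the 209 events, an 1831-base segment (mm9, chr8:4245826-4247656) that is mostly noncoding sequence of an annotated terminal exon. Its retention was 92.2 in control cells and 97.5 in knockdown cells, with 45 and 17 reads on the junction that splices it out, and a junction difference of 6.29 points (2.87 to 9.82). A 143-base constitutive exon of Map2k7 was at 99.7 and 96.4, with 2 and 14 skipping reads and a difference of -3.14 points (-5.50 to -1.32), under the threshold.

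The MAP kinase genes at the end of the cascade had almost no cassette events that could be called, 0 in the JNK genes and 1 in Mapk14. Mapk8, Mapk9, Mapk10 and Mapk14 each hold a pair of mutually exclusive exons that encode alternative forms of a stretch of the kinase domain. In the JNK genes the exons of a pair are both 72 bases long, and in Mapk14 both are 80 bases long. SpliceTrap placed each exon in a trio without its partner, so its PSI does not measure the choice between them, and the choice was taken as the share of the pair's inclusion junction reads that fell on the downstream exon. For this share the reads of both junctions of an exon were summed, where junction PSI takes their mean. A fragment that crosses both junctions may be in both counts, and the intervals are then too narrow. By junction reads, the interval of the difference in that share lay away from 0 in Mapk8 and Mapk14 and held 0 in Mapk9 and Mapk10.

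In Mapk8 (JNK1), the downstream exon took 967 of 1370 junction reads in control cells, or 70.6% (68.1 to 72.9), and the upstream exon took 403. In knockdown cells the downstream exon took 551 of 1072, or 51.4% (48.4 to 54.4), and the upstream exon took 521. The control library thus favored the downstream exon and the knockdown library used both about equally, a difference of -19.2 points (-23.0 to -15.3). Both junctions of the exons gave close to the same value, -19.5 points for those before the exons and -18.9 for those after, while the depth of assembled isoforms gave -9.38. The exons are 359 bases apart and agree at 45 of 72 bases (62.5%). They are printed with the exon in capitals, the upstream exon from mm9 chr14:34203849-34204030 and the downstream exon from chr14:34203418-34203599, both on the minus strand.
Mapk8 upstream 72-base exon: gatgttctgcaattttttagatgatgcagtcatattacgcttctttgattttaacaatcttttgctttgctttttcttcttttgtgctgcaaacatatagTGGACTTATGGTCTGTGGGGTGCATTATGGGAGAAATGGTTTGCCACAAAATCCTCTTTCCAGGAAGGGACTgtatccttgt
Mapk8 downstream 72-base exon: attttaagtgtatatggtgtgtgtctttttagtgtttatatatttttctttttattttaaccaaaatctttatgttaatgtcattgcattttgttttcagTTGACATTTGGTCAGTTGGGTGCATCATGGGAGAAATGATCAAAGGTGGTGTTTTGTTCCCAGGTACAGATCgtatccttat

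In Mapk14 (p38 alpha), the direction along the gene was the opposite one. The downstream exon took 298 of 1057 junction reads in control cells, or 28.2% (25.6 to 31.0), and 291 of 650 in knockdown cells, or 44.8% (41.0 to 48.6). Unscaled reads went from 759 to 359 on the upstream exon and from 298 to 291 on the downstream exon. The libraries differed in depth, at 75860076 and 59483573 junction reads, so these counts alone do not give the change of each exon. The share differed by 16.6 points (11.9 to 21.2). The difference was 19.7 points by the junctions before the exons and 12.2 by those after. Neither exon had a skipping read in either library.

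In Mapk9 (JNK2), whose pair is 356 bases apart, the downstream exon took 941 of 1137 reads in control cells, or 82.8% (80.5 to 84.8), and 837 of 994 in knockdown cells, or 84.2% (81.8 to 86.3). The difference was 1.44 points with an interval from -1.73 to 4.59 for counting error. By the depth of assembled isoforms it was -11.0 points, so that the measures differ for Mapk9 in direction. In Mapk10 (JNK3), whose exons are 10776 bases apart, the upstream exon took nearly all reads, 531 and 808, against 36 and 38 on the downstream exon. The downstream share was 6.35% (4.62 to 8.66) and 4.49% (3.29 to 6.11), a difference of -1.86 points (-4.47 to 0.507). The Mapk9 and Mapk10 pairs agree at 47 and 49 of 72 bases. In control cells the JNK genes thus differed in the form they favored, the downstream exon in Mapk9 and Mapk8 and the upstream exon in Mapk10.

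**Figure D3:**
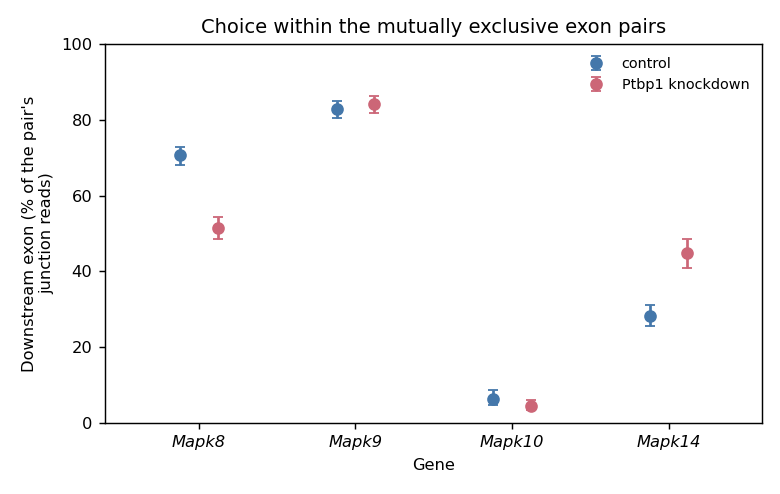
Share of the junction reads of each mutually exclusive pair that fell on the downstream exon (y axis, percent), by gene (x axis), in control cells (blue) and Ptbp1 knockdown cells (red), with 95% Wilson intervals of 1 library each. Mapk8 went from 70.6% to 51.4% and Mapk14 from 28.2% to 44.8%, while the intervals of Mapk9 and of Mapk10 overlap.

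The other 5 events lower by 5 points and the other 1 higher had an interval of their own junction PSI that held 0. The upstream Mapk8 exon went from PSI 88.2 to 99.2 and the upstream Mapk9 exon from 61.6 to 52.8, but their own junction PSI differed by 1.18 points (-1.12 to 4.19) and 0.486 points (-5.95 to 6.18). Junction PSI does not see the partner exon either. By the reads of the pair, given above, the upstream Mapk8 exon was higher, at 403 of 1370 in control cells and 521 of 1072 in knockdown cells. The 219-base and 126-base constitutive exons of Map4k4, which end at the same donor upstream of the 162-base exon, were at 90.6 and 77.9 and at 90.3 and 76.2, yet their junction PSI was over 98 in both libraries, with 4 skipping reads in control cells and 3 in knockdown cells. The downstream exon of the Mapk10 pair was at 19.9 and 14.6, a junction difference of -7.24 points (-28.0 to 14.4). A 27-base alternative donor of Mapk10, outside the coding sequence, was at 41.8 and 36.5, a junction difference of -3.53 points (-11.4 to 4.42), and it was the only one of 10 alternative donor and acceptor events past 5 points. A 5-base alternative acceptor of Mapk10 was just under the threshold at 60.5 and 55.7. In Mapk9, a 40-base alternative acceptor was at 96.9 and 99.5, a junction difference of 2.95 points (0.38 to 5.82). The 243-base constitutive exon of Map3k4 was at PSI 99.9 and 97.5, a junction difference of -2.37 points (-5.93 to 0.32), and the 225-base constitutive exon of Mink1 at 99.9 and 97.6, a junction difference of -0.54 points (-2.98 to 1.76).

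Most introns before the exons that were higher were rich in pyrimidines, which PTBP1 binds though not strictly. The authors' binding model also favors some triplets with G, which the measure used here leaves out. The measure was the share of overlapping triplets made of C and T alone in the 250 bases upstream of an exon, read on the strand of the gene, whose median over 6558 cassette events was 19.0%. Of the 9 cassette exons that were higher, 8 lay above percentile 75 of that distribution, a limit set after the values were seen, and the median percentile of the 9 was 87.6. The upstream window of the Map2k7 48-base exon stood at the percentile 97.8 with 35.9% pyrimidine triplets, that of the Tnik 87-base exon at 95.5 with 32.3% and that of the Map3k4 156-base exon at 93.8 with 30.6%. The exception was the Map4k4 192-base exon at 28.1, which also had the smallest difference of the 9, and the Mink1 111-base exon, the one that was lower, stood at 37.2. The Map4k4 9-base exon stood at 95.8 with a PSI that hardly differed. In the mutually exclusive pair of Mapk8 the window of the upstream exon, whose share was higher in knockdown cells, stood at 86.6 and that of the downstream exon at 42.8. In Mapk14 the exon whose share was higher, the downstream one, stood at 17.8 and the upstream one at 81.7.

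The hexamers CTCTCT and TTCTCT, searched on the strand of the gene alone and counted also where they overlap each other, were in the upstream window of 17.4% and 23.3% of all cassette events. Of the 9 cassette exons that were higher, 3 had CTCTCT, 3 had TTCTCT and 4 had at least 1 of them. The share with at least 1 was not computed over all cassette events. The Tnik 87-base exon and the Map4k4 162-base exon had both, the Map3k7 81-base exon had CTCTCT, and the Map2k7 48-base exon had TTCTCT. In the 100 bases downstream the same hexamers were found in 6.15% and 7.88% of all cassette events, and the Mink1 111-base and Map4k4 231-base exons had TTCTCT there. Events that were not called had matches too. The Map4k4 9-base exon had TTCTCT upstream and CTCTCT downstream. The Map2k7 143-base exon had both hexamers upstream and CTCTCT downstream. The Mink1 225-base exon had CTCTCT and the downstream Mapk9 exon TTCTCT upstream, and the Mapk9 40-base acceptor had TTCTCT downstream. These are matches of letters and not measured binding.

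**Figure D4:**
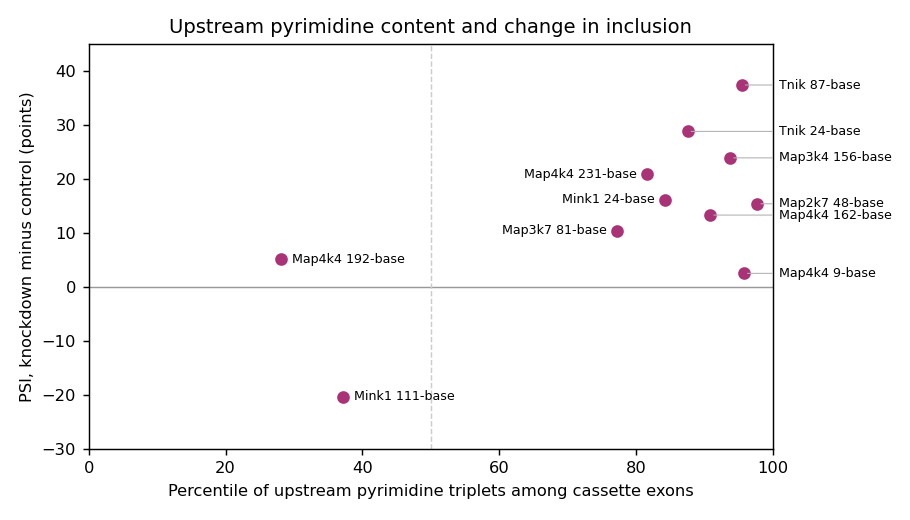
Percentile of the upstream pyrimidine triplet share among 6558 cassette events (x axis) against the difference in PSI, knockdown minus control, in points (y axis), for the 11 cassette exons named in the text, 1 library per condition. The 8 exons at the upper right, with differences from 10.4 to 37.4 points, lie above percentile 75, and the Mink1 111-base exon lies at percentile 37.2 with -20.4 points.

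Levels of the 10 genes were compared as the depth of each gene (isoform coverage times length) in parts of 1000000 of the library's total (ppm), summed over its RefSeq isoforms. By this measure 2 genes were higher by 1.5-fold, where 19.4% of all genes with a mean of at least 1 ppm were, and 1 gene was lower, where 12% were. Mapk10 was at 11.3 ppm in control cells and 56.6 in knockdown cells, a log2 ratio of 2.31. Mapk8 was at 46.0 and 74.9 (log2 ratio 0.70) and Map3k4 at 37.5 and 13.8 (log2 ratio -1.44). The other 7 genes were within 1.5-fold. RefSeq isoforms held only part of the reads, since 39.6% of the depth in control cells and 41.8% in knockdown cells was given to isoforms assembled separately in each library. The levels were therefore also taken over all isoforms of the locus and from constitutive junction reads, both chosen after seeing the data. Constitutive junctions, here and for Ptbp1 and Ptbp2, are the inclusion junctions of constitutive-class trios. They include those of the mutually exclusive pairs, so not all of them are constitutive in use.

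Mapk10 was the gene whose higher level held in all 3 measures. Over all isoforms of the locus it was at 43.6 ppm in control cells and 85.1 in knockdown cells (log2 ratio 0.96), and its 18 constitutive junctions held 3576 and 5536 reads, a level 1.98-fold that of the control library (1.90 to 2.07). It was the only one of the 10 genes past 1.5-fold by these measures, by which 15.5% and 15.4% of all genes were higher. For Mapk8 the difference was gone, with 115 and 116 ppm over the locus and a log2 ratio of 0.06 (0.01 to 0.11) by junction reads. For Map3k4 the direction turned, with 53.5 and 59.5 ppm over the locus (log2 ratio 0.15) and 0.36 (0.31 to 0.41) by junction reads. No member was lower by 1.5-fold over the locus or by junction reads, where 3.36% and 1.32% of all genes were. The median log2 ratio of all genes was itself 0.06 by RefSeq isoforms, 0.10 over the locus and 0.16 by junction reads, so that Mapk8 and Map3k7 (0.08 by junction reads) lay above 0 but under that median. In a bulk sample, a higher level in each cell and a larger share of cells that express a gene cannot be told apart.

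Mapk14 was lower by each measure within the 1.5-fold limit, with log2 ratios of -0.34, -0.18 and -0.27 (-0.32 to -0.21 by junction reads). Map4k4 was lower as well, at -0.23, -0.22 and -0.12. Per kilobase of isoform, Map4k4 was the highest of the 10 in both libraries at 74.6 and 69.5 ppm, followed by Mapk14 at 45.8 and 39.1. The lowest were Tnik at 8.44 and 9.10 and Map3k4 at 10.1 and 11.3. Among the JNK genes Mapk9 was at 23.0 and 32.4, Mapk8 at 19.8 and 20.02, and Mapk10 at 13.7 and 28.0 ppm per kilobase, so that Mapk10 was the lowest JNK gene in control cells and above Mapk8 in knockdown cells. Neighbors in this order such as Map3k7 at 19.9 and Mapk8 at 19.8 in control cells cannot be ranked with 1 library each.

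**Figure D5:**
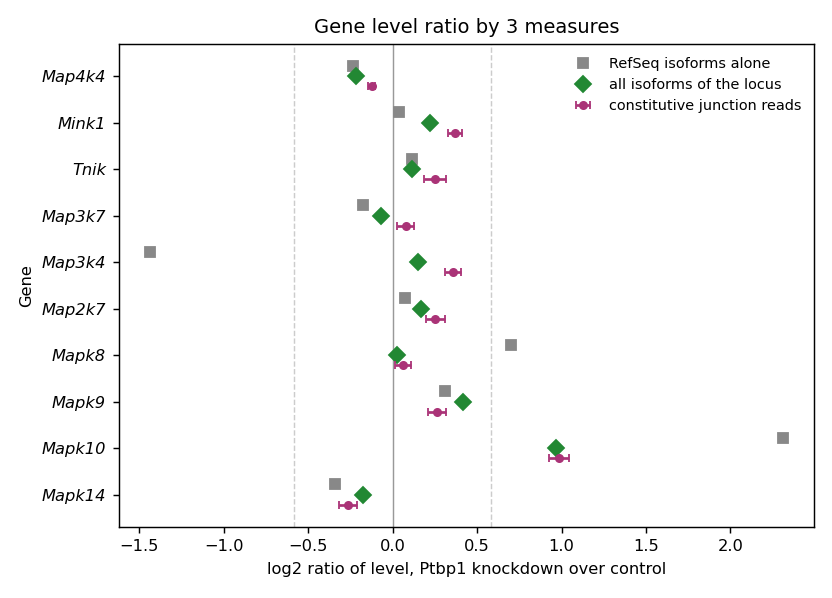
Log2 ratio of the level of each gene, Ptbp1 knockdown over control (x axis), by gene (y axis), from RefSeq isoforms alone (squares), all isoforms of the locus (diamonds) and constitutive junction reads (circles, with 95% counting intervals), 1 library per condition. The dashed lines mark 1.5-fold, and Mapk10 is past the upper one by all 3 measures while Map3k4 and Mapk8 are past a line by RefSeq isoforms alone.

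Of 62 other genes of the JNK and p38 pathways, 50 had a mean of at least 1 ppm, and by RefSeq isoforms 15 of them (30%) were higher by 1.5-fold, beside 19.4% of all genes, and 4 (8%) were lower, beside 12%. Their median log2 ratio was 0.18, beside 0.06 over all genes. By constitutive junction reads, 12 of the 46 with a value (26.1%) were higher, beside 15.4% of all genes, and 0 were lower, beside 1.32%, with a median of 0.21 beside 0.16. These 46 passed the limit of 1 ppm by RefSeq isoforms, while all genes here passed it by junction reads. Among the genes left out at 0 by RefSeq isoforms, Map3k12 had 4647 and 4648 junction reads (log2 ratio 0.36) and Dusp8 had 472 and 687 (0.89). Of the 62 genes, Map3k10 and Map4k3 had no value at all. Dual leucine zipper kinase relative Map3k13, a JNK activator in axons, was listed at 0 in control cells and at 33.7 ppm in knockdown cells by RefSeq isoforms, while all isoforms of its locus were at 13.5 and 37.1 ppm and its junctions held 256 and 885 reads. Map3k14, a kinase of noncanonical NF-kappaB signaling, was at 3.04 and 6.59 ppm, and its junctions held 249 and 519 reads. These were the only ones of the 9 genes with the largest differences that were higher by 1.5-fold in every measure. Tab3 (2.00 and 17.4 ppm), Atf2 (43.6 and 124) and Dusp4 (48.0 and 115) were higher by RefSeq isoforms, but not by junction reads, with log2 ratios there of -0.57, 0.10 and 0.08. Over all isoforms of the locus their log2 ratios were -0.08, 0.01 and -1.22, so that Dusp4 was lower by that measure, at 323 and 139 ppm. Rac1 (277 and 120), Map3k9 (9.43 and 4.78), Map3k6 (12.6 and 6.67) and Traf2 (10.5 and 6.66) were the 4 that were lower by RefSeq isoforms, and their log2 ratios were -0.15, 1.01, -0.29 and 0.02 over the locus and -0.07, 0.89, -0.08 and 0.07 by junction reads. Among groups of the list, the scaffold genes had 1 of 5 higher, Mapk8ip3 by RefSeq isoforms and Mapk8ip1 by junction reads. Both Gadd45b and Gadd45g, activators of Map3k4, were higher in all measures, with 15.4 and 23.9 and with 16.7 and 28.0 ppm, and Gadd45a was at 10.5 and 10.4.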

How the data were processed

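The submitters' notes name CASAVA, TopHat, Cufflinks and the build mm9, and the libraries were strand-specific with paired reads of 100 bases. The authors deposited, from SpliceTrap, the inclusion ratio of each exon trio as a fraction, the count of reads on each junction, and the trio's coverage, neither normalized. From Cufflinks, the authors deposited coverage (mean depth per base) and FPKM of each isoform, whose totals are not on a usual scale, so levels were used as shares of the library. Coverage was turned into reads by the summed exon sizes divided by 100.

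Events were named by middle exon, and the trio with the most reads was used. A difference of 5 points and 20 reads in each library were the limits, with Wilson and Newcombe intervals. Sequence came from NCBIM37, the assembly of mm9, and coding status from its GENCODE annotation. RefSeq identifiers of isoforms were matched to current symbols for 97.5% in both libraries. Assembled isoforms were given to the gene of their Cufflinks locus with the largest overlap, and junctions to genes whose annotated exons hold both ends. The pseudocount was 0.1 ppm. The genes named are the 10 kinases, Ptbp1, Ptbp2, and up to 5 other pathway genes with the largest difference in each direction past 1.5-fold. The events named are the exclusive pairs, those past 5 points with an interval on 1 side of 0, and the 10 others with the largest difference. The Mapk14 45-base and Tnik 104-base exons, markers, Map3k10, Map3k12, Map4k3, Dusp8, Mapk8ip1, Mapk8ip3 and the Gadd45 genes were named after the values were seen. Some marker genes and sequences are not reported here. The genes and lists were chosen with earlier results of these data known. Scripts were tested on simulated data. Python 3.11.15 with pandas 2.3.3, NumPy 2.4.6 and matplotlib 3.10.9 was used, with samtools 1.23.1 for sequence. Alternatives were other read and size limits, junction PSI, the ratio before correction, the mean over trios, other pseudocounts and scalings, and FPKM. Gene tables of Cufflinks and the RT-PCR, CLIP and array experiments were not used here.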

Additional observations from a re-analysis of the deposited data

How the results depend on the processing

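No paired analysis was possible because there was 1 library per condition and no test. The number of events higher by 5 points, 11, was between 9 and 11 under all alternatives, those chosen after seeing the data included. The number lower, 6, was 2 by junction PSI, 3 at a threshold of 10 points, 1 among cassette exons alone and 1 with the interval required. By junction PSI, the differences of the upstream Mapk9 exon (0.486) and the Map4k4 219-base (0.123) and 126-base (0.22) exons turned positive. The Mapk8 exon choice of -19.2 points was -3.09 by the PSI of both exons and -9.38 by the depth of assembled isoforms, the Mapk9 choice was -11.0 by the latter, and that of Mapk14 was 0 by PSI; PSI does not see the partner exon, and the cause for the isoforms was not tested. Over all isoforms of the locus and by constitutive junction reads, members higher by 1.5-fold went from 2 to 1 and 1, members lower from 1 to 0 and 0, and Map3k4 reversed to log2 ratios of 0.15 and 0.36. Pathway genes lower went from 4 to 1 and 0 by these measures, and at 2-fold 6 were higher and 1 lower. Median scaling moved all log2 ratios by about -0.08. Of 83 alternatives for the 27 named events, 75 were counted as unchanged. The limit was the spread of counting error, but 5 points for the values by the larger junction. The Mapk10 5-base acceptor had no junction interval. Depth limits the comparison of events with few junction reads, whose intervals are wide.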
